A study of Homo sapiens with 6 samples.

Results

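The glucocorticoid receptor gene NR3C1, 4 genes that glucocorticoids are known to induce (FKBP5, TSC22D3, PER1 and ZBTB16) and the 3 other members of the TSC22 family (TSC22D1, TSC22D2 and TSC22D4) were followed in T-cell leukaemia cells after inhibition of CDK4/6. They were chosen by name, as every probe set whose platform annotation gives 1 of these 8 symbols and no other. This gave 24 probe sets for 7 genes, of 19775 genes measured by the same rule, and the probe set with the highest mean over the 6 arrays stood for its gene. PER1 had no such probe set, since its 4 probe sets also carry the symbol of a microRNA gene, and was not analysed here.

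The cells were KOPTK1, an established human line of T-cell leukaemia of the acute lymphoblastic kind, grown in RPMI-1640 with fetal calf serum and antibiotics. The control group was given vehicle (n = 3) and the treated group 1 µM PD0332991 (n = 3), and both were harvested at 48 h. PD0332991, also called palbociclib, inhibits CDK4 and CDK6, the kinases that act with D-type cyclins to inactivate RB. Replicates are described as biological, no added glucocorticoid is named for either group, and every array comes from the same line.

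The glucocorticoid receptor is a nuclear receptor that waits in the cytoplasm in a complex with HSP90 and its co-chaperones, binds cortisol or drugs such as dexamethasone, and then moves to the nucleus to regulate genes. In immature lymphoid cells it drives cell death, which is why glucocorticoids are part of the treatment of acute lymphoblastic leukaemia. FKBP5 and TSC22D3, also called GILZ, are among its best known induced genes, and the FKBP5 protein in turn lowers the affinity of the receptor for hormone. TSC22 proteins share a conserved leucine zipper region through which they form dimers.

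Markers of the labelled cell type were present. All 12 measured T cell and thymocyte markers lay above the median intensity of all genes (89.3) on every array, among them CD3D at 7656 ± 253 (SD, n = 3) with vehicle. Their summed intensity was 24596 to 26675 on the vehicle arrays and 31585 to 32899 on the PD0332991 arrays, with 9 of 12 higher and 0 lower in limma. Over all genes 15.6% were called higher and 13.6% lower. None of 6 measured monocyte and macrophage markers lay above the median of all genes on every array, and 1 of 4 erythroid markers did (HBB at 175 ± 16.7 with vehicle, SD, n = 3). So did 1 of 5 natural killer cell markers and 3 of 6 B cell markers. The share of all genes above it on every array was not counted, so no presence or absence of these other kinds of cell is read from the counts. The summed intensity of the natural killer cell markers went from 537 to 569 with vehicle to 738 to 850 with PD0332991, and that of the B cell markers from 749 to 855 to 1085 to 1251, while the monocyte sum was 141 to 171 and 134 to 156 and the erythroid sum 316 to 388 and 297 to 373. NKG7 (0.62, adjusted p = 0.00195), CD79A (0.94, adjusted p = 0.00284) and BLK (0.39, adjusted p = 0.0107) were the called ones of these lists, on the log2 scale in limma, and CSF1R, S100A8, NCR1 and EPOR were not called. No marker was listed at 0. The part of these shifts in the results was not tested. A change in the share of a kind of cell and a change in RNA per cell cannot be told apart in bulk RNA.

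Start regions of 3 genes are printed here because their genes carry the changes described next, NR3C1 and FKBP5 on the falling side and TSC22D1 on the rising side. Each is the 250 bases before a RefSeq transcript start on GRCh38.p14, minus strand, read 5′ to 3′. For NR3C1 and FKBP5 the outermost start of the gene is shown (chr5:143435513-143435762 and chr6:35728584-35728833), and for TSC22D1 the third start counted from the outermost (chr13:44474342-44474591), the one member window with a single receptor motif. Capitals mark the motif matches described after the sequences.
NR3C1: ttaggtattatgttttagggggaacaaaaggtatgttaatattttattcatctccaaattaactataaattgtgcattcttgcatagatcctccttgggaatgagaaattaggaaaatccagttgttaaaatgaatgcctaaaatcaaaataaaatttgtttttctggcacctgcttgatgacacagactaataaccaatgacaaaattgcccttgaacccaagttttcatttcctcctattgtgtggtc
FKBP5: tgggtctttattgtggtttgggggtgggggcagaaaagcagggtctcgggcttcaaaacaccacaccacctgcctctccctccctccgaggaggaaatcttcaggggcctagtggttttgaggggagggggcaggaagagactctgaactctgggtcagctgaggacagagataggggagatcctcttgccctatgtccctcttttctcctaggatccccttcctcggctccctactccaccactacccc
TSC22D1: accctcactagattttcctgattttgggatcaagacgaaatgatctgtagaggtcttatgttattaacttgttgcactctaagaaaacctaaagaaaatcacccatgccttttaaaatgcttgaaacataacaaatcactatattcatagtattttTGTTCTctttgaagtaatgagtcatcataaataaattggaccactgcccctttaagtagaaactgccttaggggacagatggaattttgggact

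RefSeq gave 20 start regions for 6 of the 8 members (NR3C1, FKBP5, TSC22D1, TSC22D3, TSC22D4 and PER1), and that of TSC22D4 is also the start of a readthrough gene. The palindromic glucocorticoid response element (AGAACA, 3 bases of any kind, TGTTCT) was in 0 of the 20 and in 0.00286% of all 34943 start regions of the same length, searched on both strands. A sequence this rare would hardly be met in 20 windows, and bases outside them were not searched. No lack of receptor sites is therefore read from the 0. The single motif AGAACA, which the palindrome contains, was in 1 of the 20, at position −94 from the TSC22D1 start shown, and in 12.4% of all. The E2F-type sequences TTTCCCGC and TTTGGCGC were in 0 of the 20, and in 1.39% and 0.547% of all. The forkhead-type sequence GTAAACA was in 2 of the 20 (before the seventh start of NR3C1, at position −59, and the third of TSC22D3, at position −147) and in 2.98% of all. The windows printed for NR3C1 and FKBP5 hold none of these letters.

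RNA of the receptor and of FKBP5 was lower after PD0332991, and RNA of TSC22D1 was higher. TSC22D4 was higher on its brightest probe set, and its other probe set was lower on every treated array but not called. Of the 7 measured genes, 2 rose, 2 fell and 3 did not pass at a limma adjusted p under 0.05, where 29.3% of all genes passed, 15.6% higher and 13.6% lower. For 4 of the 7 no treated array fell within the vehicle range or the reverse, against 43.0% of all genes. Both shares over all genes are large, and 4 called genes of 7 is a count too small to set apart from them.

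**Figure D1:**
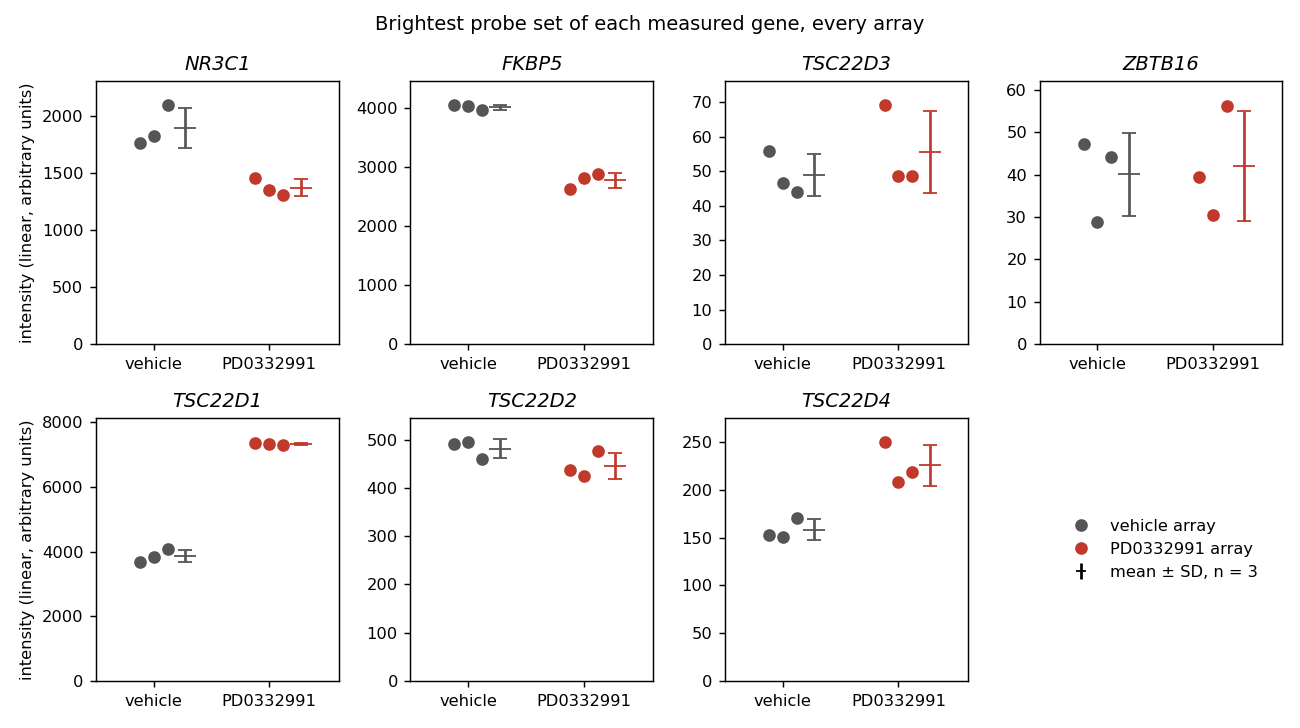
Intensity (linear axis from 0, arbitrary units) of the brightest probe set of each of the 7 measured genes on every array. Points are arrays, bars are mean ± SD of 3 arrays, and the 2 groups are apart for NR3C1, FKBP5, TSC22D1 and TSC22D4 and overlap for TSC22D3, ZBTB16 and TSC22D2.

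NR3C1, which encodes the receptor, had intensities of 1768, 1830 and 2098 on the vehicle arrays and 1456, 1355 and 1309 on the PD0332991 arrays. Every treated array lay below every vehicle array. The means were 1899 ± 175 and 1373 ± 75.3 (SD, n = 3 each), which is −0.46 on the log2 scale (SE 0.09, limma adjusted p = 0.00948), or a 1.38-fold decrease. With 1 array left out the adjusted p ran from 0.0158 to 0.0386.

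The other probe sets of NR3C1 pointed the same way. Of its 5 probe sets 4 were lower and 1 was not called in the fit of all 54613 probe sets, where 21.0% were called, 10.7% higher and 10.2% lower. The groups of all 5 were apart, as they were for 13 of the 24 member probe sets and 36.7% of all probe sets. The log2 fold changes of the 4 were −0.42 (201865_x_at), −0.46 (211671_s_at), −0.60 (216321_s_at) and −0.61 (201866_s_at). The 4 have identifiers ending in _x_at or _s_at, which mark probes that can match more than 1 transcript. The fifth, 232431_at, had intensities of 292, 316 and 282 with vehicle and 260, 199 and 247 with PD0332991. Its log2 fold change of −0.32 (95% interval −0.59 to −0.05, limma adjusted p = 0.0977) did not pass. When it stood for the gene, among genes taken without such identifiers, the adjusted p of NR3C1 was 0.0844. In the fit of all probe sets 211671_s_at was not called without PD0332991 replicate 2 (adjusted p = 0.0522) or 3 (0.058), and with the replicate number as a block (0.0569). The change did not differ between the brightest probe set and any of the other 4 by the limma test of that difference, with differences of −0.15 to 0.14 and adjusted p of 0.389 to 0.817.

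FKBP5 encodes FKBP51, the co-chaperone that glucocorticoids induce and that holds the receptor in a state of low affinity. Its brightest probe set, 224840_at, was at 4047, 4035 and 3969 with vehicle and 2628, 2821 and 2883 with PD0332991. The groups lay far apart compared with their spread, and RNA fell by 0.53 in log2 (SE 0.06, limma adjusted p = 0.00122), a 1.44-fold decrease. The gene kept its call in each of 18 alternatives, with an adjusted p of 1.8e-05 to 0.0122.

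All 3 probe sets of FKBP5 fell. The second, 224856_at, went from 1256, 1334 and 1311 to 679, 747 and 826, or −0.78 in log2 (SE 0.09). The third, 204560_at, went from 128, 152 and 173 to 69.2, 83 and 96.6, or −0.76, and was no longer called once vehicle replicate 2 was dropped (adjusted p = 0.0512). No array of one group reached the other on any of them. The decrease was 1.44-fold to 1.72-fold over the 3, and the tests of the differences between them did not pass (limma adjusted p 0.109 and 0.351).

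**Figure D2:**
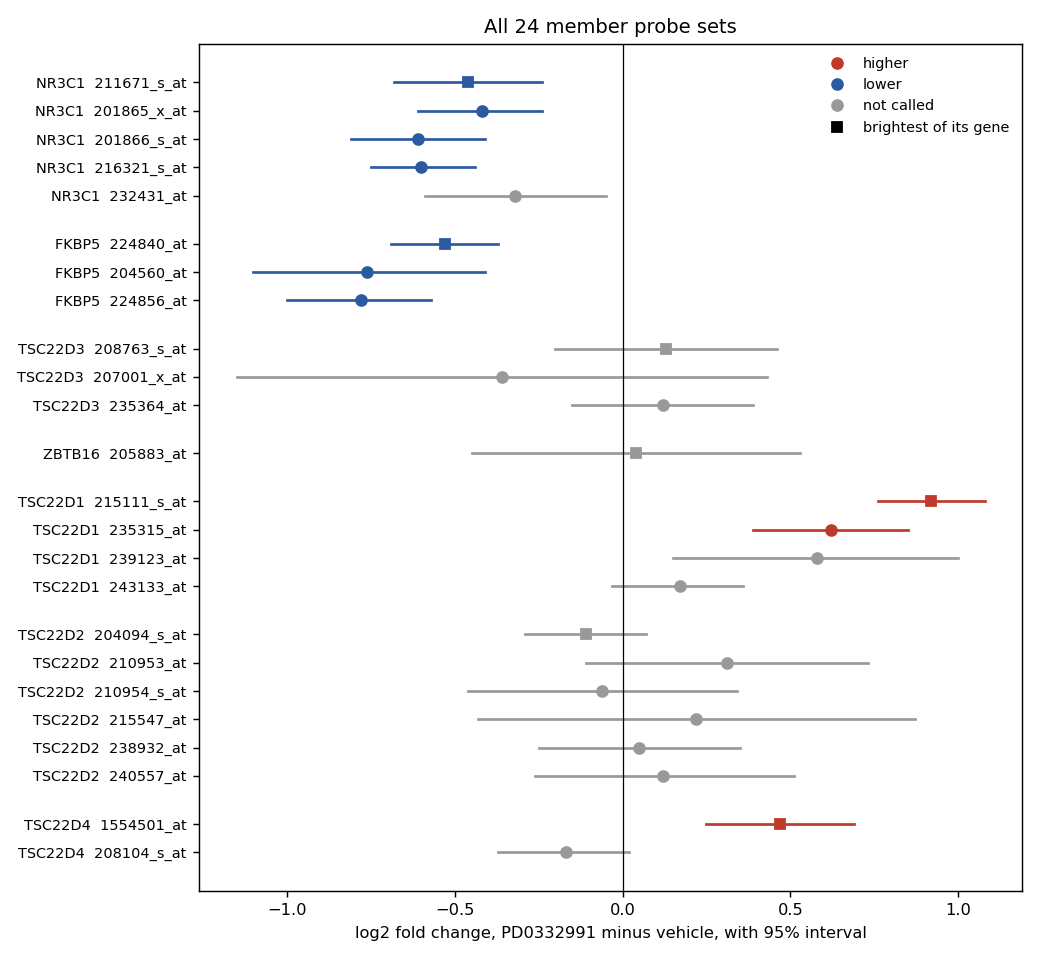
Log2 fold change (PD0332991 minus vehicle) of all 24 member probe sets with its 95% interval from limma, grouped by gene, with squares for the brightest probe set. The probe sets of NR3C1 and FKBP5 all lie left of 0, those of TSC22D1 all lie right of 0, and those of TSC22D2, TSC22D3 and TSC22D4 lie on both sides.

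TSC22D3 encodes GILZ, the leucine zipper protein through which glucocorticoids restrain inflammatory signalling in lymphocytes. Its brightest probe set, 208763_s_at, was at 55.7, 46.7 and 44.1 with vehicle and 69.1, 48.7 and 48.7 with PD0332991. The groups overlapped, and PD0332991 replicate 1 stood above the other 5 arrays. The log2 fold change of 0.13 had a 95% interval of −0.19 to 0.46 (limma adjusted p = 0.539), and it was −2.9e-04 without PD0332991 replicate 1. The other probe sets gave 0.12 (235364_at) and −0.36 (207001_x_at), neither called, and on the latter 3 of the 6 arrays were under 5 in intensity. All 3 are dim, near or below the medians of 49.1 to 54.3 over all probe sets of an array, and the files carry no detection call that would separate such values from background.

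ZBTB16 encodes PLZF, a zinc finger repressor that steroids induce in several tissues. Its only probe set was at 47.1, 28.8 and 44.2 with vehicle and 39.5, 30.4 and 56.1 with PD0332991. The groups overlapped on these dim values, and the log2 fold change of 0.04 had a wide 95% interval, −0.45 to 0.54 (limma adjusted p = 0.908). Its sign turned without vehicle replicate 2 or without PD0332991 replicate 3. Of the 4 glucocorticoid-induced members, then, FKBP5 was called lower, TSC22D3 and ZBTB16 were not called and PER1 was not analysed.

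TSC22D1, the founding member of the TSC22 family, first described as a gene induced by TGF-β, had the largest change of the members on the brightest probe sets; with the mean of probe sets FKBP5 (−0.69) changed more than TSC22D1 (0.57). It went from 3689, 3820 and 4069 to 7353, 7328 and 7302 on probe set 215111_s_at. The treated arrays differed by less than the vehicle arrays did (SD 25.6 and 193), and all 3 lay above them. RNA rose by 0.92 in log2 (SE 0.06, limma adjusted p = 1.6e-04), a 1.9-fold increase, and was called in each of 18 alternatives, with values of 0.57 to 0.98.

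The 4 probe sets of TSC22D1 were all higher in the mean, and 2 of the 4 were called. The second, 235315_at, went from 158, 163 and 193 to 275, 255 and 283, a log2 fold change of 0.62 (limma adjusted p = 0.00573). The third, 239123_at, was at 33.1, 20.7 and 17.4 and then at 33.4, 47.6 and 47.7, or 0.58, and did not pass (limma adjusted p = 0.0664). It passed without vehicle replicate 1 (0.74, adjusted p = 0.0319), the vehicle array nearest to the treated ones. The fourth, 243133_at, was at 16.9, 15.4 and 20 and then at 19.9, 23.4 and 21.3, values close to the pseudocount of 16, and its log2 fold change of 0.17 did not pass. Whether a dimmer probe set changed unlike the brightest was tested with limma over all 21316 such pairs, of which 11.8% passed, 5.08% with a higher and 6.72% with a lower change of the dimmer probe set. For 235315_at the difference of −0.30 (adjusted p = 0.0763) and for 239123_at that of −0.34 (adjusted p = 0.348) did not pass. For 243133_at the difference of −0.75 passed (adjusted p = 0.00463) and kept its call in each of 9 alternatives. It was −0.63 with a pseudocount of 1 (adjusted p = 0.0435) and −0.84 with 64 (adjusted p = 3.6e-05). At intensities this near the pseudocount a change is compressed by the log2(intensity + 16) scale. The probe set is also not shown to be above background, so no size is read from it.

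TSC22D4 encodes a widely expressed member of the family. Its brightest probe set, 1554501_at, went from 153, 151 and 171 to 250, 208 and 219. All treated arrays were higher, by a mean of 0.47 in log2 (SE 0.09, limma adjusted p = 0.00963) or 1.39-fold. In the fit of all probe sets it was called with an adjusted p of 0.0152, a call that went when vehicle replicate 1 (0.0616) or 2 (0.0622) was left out.

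The other probe set of TSC22D4, 208104_s_at, went the opposite way. It was at 84.9, 76.8 and 75.2 with vehicle and 62.5, 69.8 and 72.2 with PD0332991, so that every treated array was lower. Its log2 fold change of −0.17 did not pass (limma adjusted p = 0.194). The difference between the 2 probe sets of −0.64 (SE 0.14) did pass (limma adjusted p = 0.033). The size held when arrays were left out, at −0.52 to −0.72, but the call did not: without vehicle replicates 1 and 2, in turn, the adjusted p was 0.109 and 0.104, without PD0332991 replicates 1 to 3 it was 0.072, 0.063 and 0.0709, and without vehicle replicate 3 it was 0.0404. It was 0.089 with the replicate number as a block, 0.0712 with a pseudocount of 1 (a difference of −0.72) and 0.00559 with 64 (−0.49). With the mean of both probe sets the gene was at 0.15 (limma adjusted p = 0.0963), so the direction given for TSC22D4 is that of its brighter probe set.

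**Figure D3:**
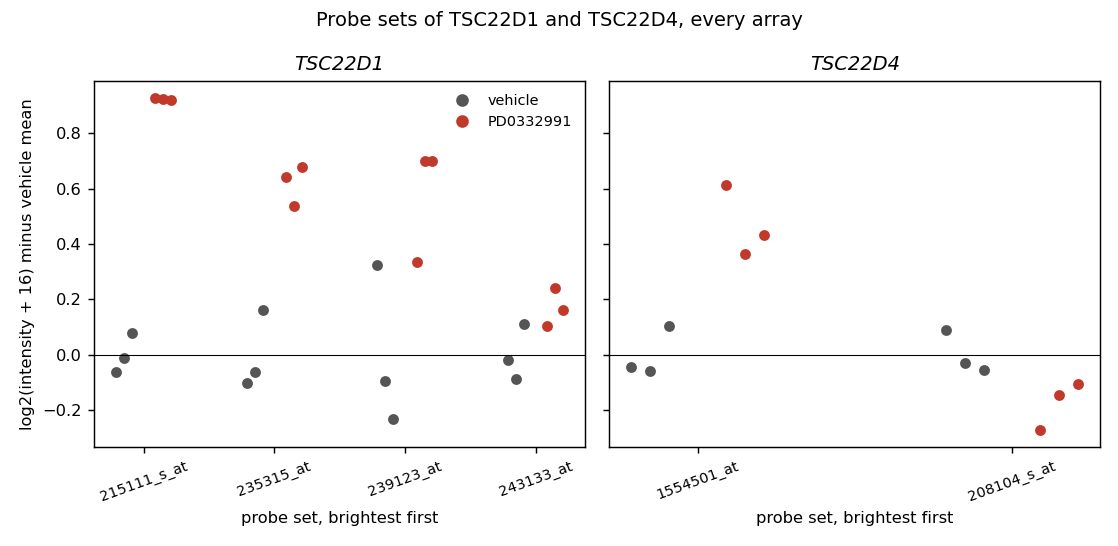
Log2(intensity + 16) of every array minus the vehicle mean, for the 4 probe sets of TSC22D1 and the 2 of TSC22D4, brightest first. The treated arrays of TSC22D1 lie highest on the brightest probe set, and the 2 probe sets of TSC22D4 move apart.

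TSC22D2, whose protein binds the WNK kinases, had 6 probe sets, and limma called 0 of them, with 0 at an unadjusted p under 0.05 as well. The brightest, 204094_s_at, was at 490, 495 and 459 with vehicle and 437, 425 and 476 with PD0332991. The third treated array lay within the vehicle range. The log2 fold change of −0.11 had a 95% interval of −0.27 to 0.06 (limma adjusted p = 0.309). The other 5 probe sets, with group means of 7.21 to 76.5, gave log2 fold changes of −0.06 to 0.31, and the groups overlapped on all 6.

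Within the TSC22 family the order of the log2 fold changes was TSC22D1 (0.92), TSC22D4 (0.47), TSC22D3 (0.13) and TSC22D2 (−0.11). Each of the 6 pairs was compared by the difference of log2 values on each array, with a two-sided exact permutation test, whose smallest possible p is 0.1 for 3 against 3 arrays. TSC22D1 exceeded TSC22D4 by 0.45 (SE 0.08), TSC22D3 by 0.79 (SE 0.17) and TSC22D2 by 1.03 (SE 0.09), with groups that did not overlap and exact p = 0.1, adjusted p = 0.12. TSC22D2 and TSC22D3 differed by −0.24 (SE 0.16, exact p = 0.2), with groups that overlapped. TSC22D4 lay above both, by 0.34 (TSC22D3 minus TSC22D4 was −0.34) and by 0.58 (TSC22D2 minus TSC22D4 was −0.58), at exact p = 0.1. This test cannot pass a threshold of 0.05 with 3 against 3 arrays, so none of the pairs could be called by it. The order holds for the brightest probe sets: with the mean of probe sets it was TSC22D1 (0.57), TSC22D4 (0.15), TSC22D2 (0.09) and TSC22D3 (−0.04), and TSC22D3 was measured on dim probe sets with no detection call.

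Over the 6 arrays, the pattern of NR3C1 was most like that of NSFL1C (Pearson r = 0.997), which encodes a cofactor of the p97 ATPase, the ubiquitin ligase gene HACE1 (r = 0.994) and the transcription factor gene RFX2 (r = 0.993). These r values are descriptions over 6 arrays of 2 groups, and 359 of the 9887 brighter genes had an r above 0.95 with NR3C1. HACE1 and RFX2 had log2 fold changes of −0.49 and −0.74, both called, and NSFL1C was at −0.17 (limma adjusted p = 0.075). The genes most like TSC22D3 were BOD1L1 (r = 0.990), TAPT1-AS1 (r = 0.976) and FERRY3 (r = 0.970), with log2 fold changes of 0.07, 0.13 and 0.05, none called. With TSC22D3, 11 brighter genes had an r above 0.95. Its probe set is dim, and PD0332991 replicate 1 stood above every other array (69.1 against 44.1 to 55.7). How many unrelated genes would reach such an r was not tested, so no relation is read from these likenesses.

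Other genes known to be induced by glucocorticoids were called more on the higher than on the lower side. The list was chosen with earlier results of these data known, so its counts and median are descriptions and not an independent test. Of 21 measured of 22 listed, 9 rose, 2 fell and 10 did not pass in limma, with a median log2 fold change of 0.30, against 3088 higher and 2698 lower of 19775 genes and a median of 0.01. BCL2L11, which encodes the death-promoting protein BIM, went from 1913 ± 151 to 3978 ± 126 (SD, n = 3 each), which is 1.05 in log2. The antiproliferative gene BTG1 was at 1.05 and IL7R, the interleukin-7 receptor gene, at 0.89. CXCR4, a chemokine receptor gene, fell by 1.10 and KLF9, a zinc finger gene widely used as a marker of receptor activity, by 0.26. SGK1 at 0.79, DUSP1 at 0.74, SOCS1 at 0.49, PIK3R1 at 0.49, GLUL at 0.31 and CD163 at 0.44, all picked out for naming once their values were known, were the other 6 that rose, and CD163 was at 8.77 with vehicle, below the pseudocount.

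The count for these genes depended on the probe set taken. With the mean of a gene's probe sets 6 rose and 1 fell, and without identifiers ending in _x_at or _s_at 4 rose and 1 fell. BTG1 was then at −0.01 (limma adjusted p = 0.987), and KLF9, averaged over its probe sets, at 0.12 (adjusted p = 0.249). Averaged in the same way, BCL2L11 was at 0.58 and BTG1 at 0.74, smaller than on their brightest probe sets. IL7R was at 0.94 and CXCR4 at −1.20, slightly larger. Dropping vehicle replicate 1, 2 or 3 or PD0332991 replicate 1 or 2 also left KLF9 uncalled, at adjusted p of 0.108, 0.0928, 0.0681, 0.0752 and 0.0758. With the replicate number as a block KLF9 had an adjusted p of 0.0717. IL7R and CXCR4 are also expressed by T cells, and 9 of the 12 T cell markers were called higher, against 15.6% of all genes. The part of that shift in these values was not tested.

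**Figure D4:**
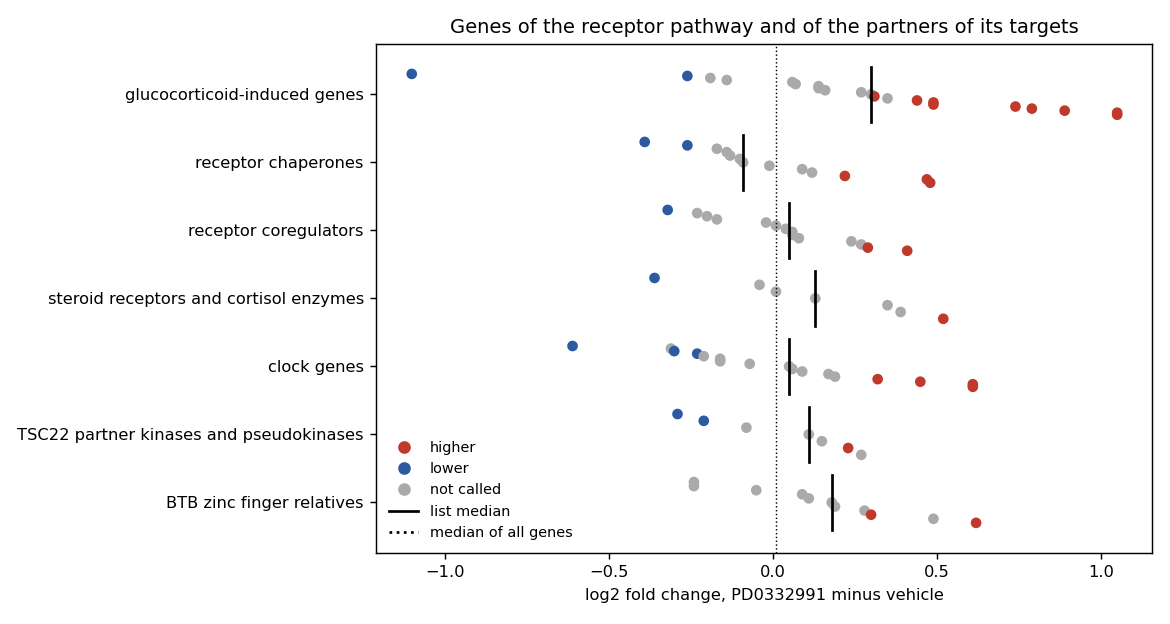
Log2 fold change (PD0332991 minus vehicle) of the measured genes of each list, coloured by call, with the list's median as a solid line and that of all genes as a dotted line. The glucocorticoid-induced genes have the highest median, 0.30, and the chaperones the lowest, −0.09. The lists were chosen with earlier results of these data known.

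The list of receptor chaperones, which also holds cofactors with other clients, went both ways. Of 13 measured of 16, 3 were higher and 2 lower, with a median of −0.09. Over all genes 15.6% were called higher and 13.6% lower. CDC37, the HSP90 adaptor for kinases, rose by 0.48, and STUB1, a ubiquitin ligase that acts on chaperone clients, by 0.47. The other that rose was HSPA4, by 0.22, picked out afterwards. STIP1, which bridges HSP70 and HSP90, fell by 0.39 and PTGES3, the p23 co-chaperone of the mature receptor complex, by 0.26. HSP90AA1 at −0.10, HSP90AB1 at −0.01 and FKBP4, the co-chaperone that competes with FKBP51, at −0.09 did not pass, and were likewise picked out afterwards.

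Of 14 measured receptor coregulators of 17, 2 rose and 1 fell, and the median was 0.05. The shares over all genes were 15.6% higher and 13.6% lower. The coactivator genes NCOA1 and EP300 rose by 0.41 and 0.29, and CARM1, an arginine methyltransferase gene, fell by 0.32. Only 1 of the 3 was called without vehicle replicate 1 or PD0332991 replicate 1. EP300 had an adjusted p of 0.0545 to 0.109 without any 1 of vehicle replicates 1, 2 and 3 and PD0332991 replicates 1 and 3, and CARM1 of 0.0654 to 0.0885 without any 1 of the vehicle replicates or PD0332991 replicates 1 and 2. EP300 was also not called with the replicate number as a block (0.0714) or with the mean of its probe sets (0.21, adjusted p = 0.0984), nor CARM1 after quantile normalization (0.0617). Of 7 measured other steroid receptors and enzymes of cortisol metabolism, H6PD rose by 0.52 (0.25 with the mean of probe sets). It supplies the cofactor of the cortisol-forming enzyme. HSD11B1, the gene of that enzyme, also named after its values were seen, was dim at 36.9 and 35.8. It was not called (−0.04, adjusted p = 0.871). ESR1 was at 67.2 with vehicle and fell by 0.36, a call absent when vehicle replicate 1 or any PD0332991 replicate was left out (adjusted p 0.0712 to 0.103). With the mean of its probe sets ESR1 was at −0.02 (adjusted p = 0.845), and with the replicate number as a block its adjusted p was 0.0596. NR3C2, which encodes the mineralocorticoid receptor and is named after its values were seen, was dim at 12.6 and 19.6 and not called.

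For the partners of the induced genes, 4 clock genes rose and 3 fell of 17 measured, with a median of 0.05. For this and the next 2 lists, the shares over all genes were 15.6% higher and 13.6% lower. CSNK1D, a kinase that phosphorylates PER proteins, rose by 0.61, BMAL1 by 0.61 and the repressor gene CRY2 by 0.45. DBP fell by 0.61 and CLOCK by 0.30. The other called ones, picked out afterwards, were PER2 at −0.23 and RORA at 0.32. With the mean of probe sets CSNK1D was at 0.32 and DBP at −0.28, while BMAL1 was at 0.63, CRY2 at 0.45 and CLOCK at −0.30. Without vehicle replicate 2 the lower ones numbered 0, with an adjusted p of 0.051 for DBP and 0.0519 for CLOCK, and DBP had 0.0508 without vehicle replicate 1 and a value of 0.05 (adjusted p = 0.724) without identifiers ending in _x_at or _s_at. Of 7 measured kinases and pseudokinases that work with TSC22 proteins, WNK1 rose by 0.23, and STK39 and OXSR1, which WNK kinases activate, fell by 0.29 and 0.21. All 3 calls were absent with the replicate number as a block, and when vehicle replicate 1 or 2 or any PD0332991 replicate was left out, with adjusted p of 0.0619 to 0.122 for the left-out arrays, and OXSR1 had 0.0745 without vehicle replicate 3. With the mean of its probe sets WNK1 was at 0.01 (adjusted p = 0.944), so its rise is that of the brightest probe set. Of 11 BTB zinc finger genes related to ZBTB16, ZBTB20 rose by 0.62 and ZBTB17 by 0.30, and 0 fell in limma, also at an unadjusted p under 0.05. Their count was 0 without vehicle replicate 2 (adjusted p = 0.056 and 0.0507) and 5 without vehicle replicate 3. Averaged over its probe sets ZBTB17 was at 0.16 (adjusted p = 0.256). ZBTB20 also had an adjusted p of 0.0527 when vehicle replicate 1 was left out, and of 0.0558 and 0.0556 for PD0332991 replicates 1 and 3.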

How the data were processed

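RNA of 6 cultures was biotin-labelled and hybridised to Affymetrix expression arrays, per the labels' protocols. Per probe set, the deposited files give a linear intensity, summarised and scaled by the authors with a method not given in the sources used here. They ran from 0.56 to 16362, and 25.5% lay below 16. Values were taken as log2(intensity + 16), so fold changes of dim genes are understated. Control probe sets (62) were dropped. The platform annotation of the probe table gave 1 symbol for 41091 probe sets, several for 1801 and none for 11721, and symbols were updated by gene ID through RefSeq (GRCh38.p14), with 54 unmatched. Of a gene's probe sets the one with the highest mean over the 6 arrays was used.

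The treatment effect was fitted by lmFit and eBayes of limma 3.58.1 (R 4.3.3), two-sided, with Benjamini-Hochberg adjustment over all 19775 genes, all 54613 probe sets or all 21316 pairs of a dimmer and the brightest probe set of a gene. Every adjusted p is from limma unless an exact test is named, and the threshold is 0.05. The number of arrays limits the precision. The code was tested on simulated data. Figures used matplotlib 3.10.9. Named genes are all members, up to 4 called genes with the largest change per list, up to 1 called against the direction of most, the 2 brightest markers of each cell type, and the 3 genes most like NR3C1 and TSC22D3 among genes brighter than the median. The members and lists were chosen with earlier results of these data known. Of the listed genes without a single-symbol probe set nothing was analysed here. The settings varied were quantile normalization, centring on the median or 75th percentile, the replicate number as a block, leave-one-out over arrays, restriction to brighter genes, averaging a gene's probe sets, omitting identifiers ending in _x_at or _s_at, eBayes with a trend or robust, pseudocounts of 1 and 64 and all probe sets in 1 fit.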

Additional observations from a re-analysis of the deposited data

How the results depend on the processing

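The called members FKBP5 and TSC22D1 kept their call and direction in all 18 alternatives, NR3C1 in 17 and TSC22D4 in 17. The count of called member genes was 4 without any 1 array, and that of called member probe sets 8 to 10. Signs turned for uncalled values: TSC22D2 gave 0.09 with the mean of probe sets and 0.12 without identifiers ending in _x_at or _s_at, ZBTB16 −0.11 and −0.13 without vehicle replicate 2 or PD0332991 replicate 3 (range −0.13 to 0.19 with 1 array left out), TSC22D3 −0.04 with the mean of probe sets and −2.9e-04 without PD0332991 replicate 1 (range −2.9e-04 to 0.21), and the TSC22D2 probe sets 210954_s_at 0.11 without vehicle replicate 3 (range −0.16 to 0.11) and 238932_at −0.03 and −0.01 without vehicle replicate 1 or PD0332991 replicate 3 (range −0.03 to 0.15). Among listed genes, BTG1 turned to −0.01 and DBP to 0.05 without identifiers ending in _x_at or _s_at, and KLF9 to 0.12 with the mean of probe sets. The cause was not tested. The count of dimmer probe sets that changed unlike the brightest was 2514 of all pairs and 2 of the members' 17, and it was 1501 and 1 with the replicate number as a block, 1221 and 1 with a pseudocount of 1, 4783 and 4 with a pseudocount of 64, and 1027 to 2305 and 1 to 2 with 1 array left out. The block and the left-out arrays were added for these pairs after seeing the data.

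Replicate numbers were compared by the correlation of deviations from the group means over the brighter genes. It was 0.13, 0.08 and 0.09 for arrays of the same number and −0.15 to 0.06 for others, so every array correlated best with its own number, which is a hint from the data and not part of the design. With the replicate block 4793 genes were called in place of 5786, and 4 member genes in place of 4. No probe set has a detection call, and TSC22D3, ZBTB16 and the dimmer probe sets of TSC22D2 are dim. A change within its interval may have been missed for any of these. A call rests on the adjusted p, so the interval does not set what was detectable.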
